A study of Drosophila melanogaster with 6 samples.

Results

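Short stretches of the fly genome that gave no reads in su(Hw)f ovaries, while wild-type ovaries gave them, numbered 1206 on the major arms. They were found in read counts per 100 bp window along genome build dm3. A window belonged to the set when both su(Hw)f libraries, preimmune and input, held 0 reads and the wild-type libraries together held 15 or more, and adjacent windows were joined into 1 segment. The part of X from 2.6 to 2.9 Mb, which holds 1 large loss, was left out. Of 876587 windows with 15 or more wild-type reads, 1487 had no su(Hw)f read, which is 0.170%. The segments cover 148700 bp in all. The rule used all 4 libraries, so the read values inside the segments describe the choice and are not a test of it.

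The study profiled chromatin from ovaries of virgin Drosophila melanogaster females under 6 h old. One genotype was the su(Hw)f mutant, whose strain label reads su(Hw)fv, and the other was wild type of the strain Canton S. Each genotype gave 1 preimmune library, made from chromatin brought down by serum without the antibody, and 1 input library, made from chromatin before precipitation. The 2 libraries precipitated with anti-Su(Hw) are not analysed here. All chromatin was fixed in 1.8% formaldehyde, and libraries had 15 PCR cycles. With 1 sample in each group no difference has a replicate check, and the mutation cannot be told apart from strain background.

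Su(Hw) is a zinc finger DNA-binding protein known from the gypsy insulator, a retrotransposon sequence that blocks enhancers. Laboratory strains of Drosophila differ from the reference genome by deletions, by insertions of transposable elements and by base changes. A read from DNA that a strain lacks, or that differs too much from the reference, is not placed at that reference position. Loss from only one of a pair of homologous chromosomes lowers the reads without removing them. The DNA next to the centromeres is heterochromatin, rich in old transposon copies and poor in genes. No dm3 annotation or sequence was used here, so the segments are given by position and not by gene.

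The libraries held 20130453 reads in su(Hw)f preimmune, 20596448 in su(Hw)f input, 12173312 in wild-type preimmune and 13993582 in wild-type input. The median 100 bp window on the major arms held 15, 14, 9 and 11 reads in the same order. On these arms su(Hw)f had 1.565 times the reads of wild type over both kinds of library. A window with 15 wild-type reads would therefore hold about 23.5 su(Hw)f reads at an equal level. All 95% intervals given are exact and cover counting error only, since reads without molecular identifiers can be copies of 1 fragment.

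Most segments were as short as the windows allow. Of the 1206, 1082 were 1 window of 100 bp (89.7%, Clopper-Pearson interval 87.9% to 91.4%), 64 were 200 bp and 60 were 300 bp or longer. The 60 longer segments held 277 of the 1487 windows. Only 17 reached 500 bp, and the longest was 2100 bp. The same rule turned round, with wild type at 0 and su(Hw)f at 15 or more, found 859 segments in 1493 of 933547 windows (0.160%). Of these, 613 were 1 window long (71.4%, interval 68.2% to 74.4%) and 131 were 300 bp or longer.

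**Figure D1:**
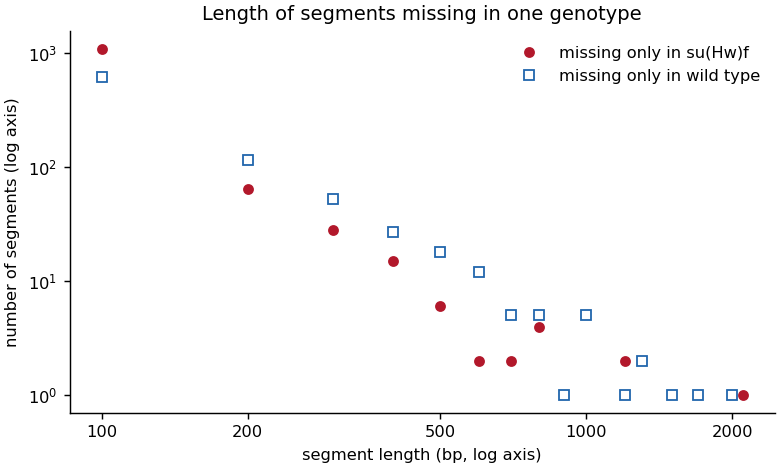
Number of segments (log axis) by segment length in bp (log axis), for segments missing only in su(Hw)f (filled circles) and those missing only in wild type (open squares). At 100 bp there are 1082 and 613 segments, while at 200 bp there are 64 and 115 and at 300 bp 28 and 52.

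The 2 directions are not on equal terms, because 15 reads is a lower bar in the deeper su(Hw)f libraries. With the bar for su(Hw)f scaled to 23.5 reads, 1206 segments were missing only in su(Hw)f and 505 only in wild type. With 30 reads asked in both directions the order turned round, at 205 segments missing only in su(Hw)f and 365 only in wild type. Segments of 300 bp or more were fewer on the su(Hw)f side under each of these settings. They numbered 60 against 131 at 15 reads, 60 against 80 with scaling and 10 against 44 at 30 reads.

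Windows with 0 su(Hw)f reads were about as many as those with 1. Among windows with 15 or more wild-type reads, 1487 held 0 su(Hw)f reads, 1429 held 1, 2074 held 2 and 2741 held 3. In windows with 15 or more wild-type input reads, by contrast, the empty ones stood apart. There 165 windows held 0 su(Hw)f reads, 23 held 1, 16 held 2 and 26 held 3. At the edge of the rule, 195 windows with no su(Hw)f read had exactly 15 wild-type reads and were taken, and 200 with 14 were not.

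Wild-type reads in the set came mainly from preimmune. Over all members wild-type preimmune held 22893 reads and wild-type input 10820, so preimmune gave 67.9% of them (interval 67.4% to 68.4%). In all other windows with 15 or more wild-type reads it gave 46.6%. Scaled to library size, preimmune over input was 2.45 in the segments and 1.01 in those other windows. The rule asked for 0 reads in both su(Hw)f libraries and set its minimum on the wild-type sum. This balance is therefore a description of the windows chosen, and its cause was not tested. Segments missing only in wild type leaned the same way and by less, with a su(Hw)f preimmune over input ratio of 1.34 (1.32 to 1.37), against 0.989 in other windows with 15 or more su(Hw)f reads.

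The balance differed with length. In segments of 1 window, wild-type preimmune held 17220 reads and input 6022, a scaled ratio of 3.31 (interval 3.21 to 3.41). In segments of 2 windows the ratio was 1.64 (1.53 to 1.77). In those of 3 or more windows preimmune held 3990 reads and input 3614, a ratio of 1.28 (1.22 to 1.34). Long segments thus lay nearer to the other windows of the genome than single windows did. In segments missing only in wild type the su(Hw)f ratio also fell with length, at 1.58, 1.37 and 1.20 for 1, 2 and 3 or more windows.

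Counted by segment, wild-type preimmune exceeded wild-type input in 964 of the 1082 single windows, and input exceeded preimmune in 105. Of these single windows, 538 had fewer than 5 wild-type input reads and 25 had none. Among the 60 segments of 300 bp or more, 32 had more preimmune and 26 more input reads, and none had fewer than 5 input reads. The median member window held 14 wild-type preimmune and 6 wild-type input reads. Its wild-type sum ranged from 15 to 96 over the set, with a median of 20. The median over all windows on the arms was 21. That value includes windows under 15 reads, which the rule leaves out, so these medians are not like for like. All other windows with 15 or more wild-type reads had medians of 11 preimmune and 13 input reads. The median of their sum was not computed.

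**Figure D2:**
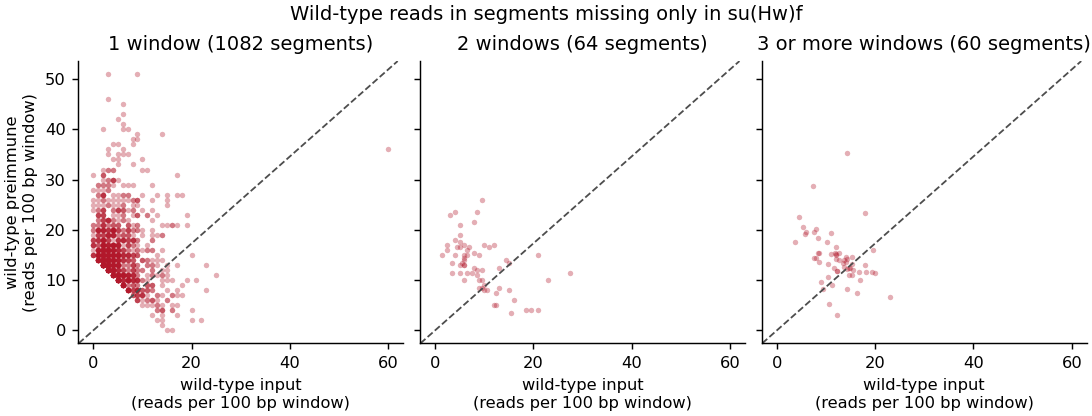
Wild-type preimmune reads (vertical) against wild-type input reads (horizontal) per 100 bp window, 1 point per segment missing only in su(Hw)f, by segment length. The dashed line is the ratio of the library sizes. Most of the 1082 single windows lie above it, near 15 preimmune and 5 input reads, while the 60 segments of 3 or more windows lie on both sides.

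Because all 4 libraries had chosen the members, the choice was repeated with 1 kind of library and read in the other. The inputs alone picked 184 of 376240 windows (0.0489%), with su(Hw)f input at 0 and wild-type input at 15 or more. In 165 of the 184 su(Hw)f preimmune, which had no part in this choice, was at 0 as well (89.7%, interval 84.3% to 93.7%). The share at 0 over all windows with 15 or more wild-type input reads was 0.177%. These windows held 109 su(Hw)f preimmune and 2276 wild-type preimmune reads, a scaled ratio of 0.0288 (0.0235 to 0.0349).

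Length sorted the windows picked by input. In segments of 2 windows all 30 windows were at 0 in su(Hw)f preimmune, and in segments of 3 or more all 52 were. Wild-type preimmune held 405 and 586 reads in them. Of 102 single windows, 83 were at 0 (81.4%, interval 72.4% to 88.4%), and the 109 su(Hw)f preimmune reads all lay in single windows.

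The choice by preimmune held up less often. Preimmune alone picked 2926 of 276593 windows (1.06%), and su(Hw)f input was at 0 in 726 of them (24.8%, interval 23.3% to 26.4%). Over all windows with 15 or more wild-type preimmune reads that share was 1.25%. The 2926 windows held 11245 su(Hw)f input and 18271 wild-type input reads, a scaled ratio of 0.416 (0.406 to 0.426). Input in these windows was therefore reduced in su(Hw)f and mostly not at 0.

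Wild-type input was thin in the windows picked by preimmune, with a median of 5 reads, so a bar on it was added after seeing the data. Where wild-type input held 10 or more reads, su(Hw)f input was at 0 in 129 of 558 windows (23.1%, interval 19.7% to 26.8%), with a ratio of 0.388. That share was 0.134% over all windows with 15 or more wild-type preimmune and 10 or more wild-type input reads. Over all 2926 windows, without that bar, the share at 0 was 22.2% in single windows, 47.6% in segments of 2 and 81.0% in segments of 3 or more windows. Turned round, windows picked by inputs as missing in wild type were at 0 in wild-type preimmune in 503 of 584 cases (86.1%, interval 83.1% to 88.8%). Over all 582259 windows with 15 or more su(Hw)f input reads that share was 2.92%. Windows picked by preimmune as missing in wild type were at 0 in wild-type input in 800 of 16314 (4.90%). Over all 640649 windows with 15 or more su(Hw)f preimmune reads it was 0.193%.

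The windows beside a segment are by construction ones that failed the rule, so their values are a description. Within 500 bp on each side, outside other segments, the scaled su(Hw)f over wild-type ratio was 0.722 in preimmune (0.717 to 0.728) and 0.829 in input (0.822 to 0.836). Beside single windows, the ratio in the first 100 bp was 0.392 in preimmune and 0.509 in input. It was 0.592 and 0.758 at 200 bp, 0.809 and 0.851 at 300 bp, and 0.922 and 0.942 at 500 bp. The ratio thus fell most within about 300 bp of a missing window, and the reads did not stop at its edge. It stayed below 1 out to 2000 bp, at 0.900 and 0.927 at 1000 bp and 0.926 and 0.935 at 2000 bp.

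The libraries behaved differently beside single windows. At 100 bp su(Hw)f preimmune stood at 0.414 times its mean window and su(Hw)f input at 0.264 times, against 1.06 times in wild-type preimmune and 0.517 times in wild-type input. At 200 bp the values were 0.748 and 0.547 in su(Hw)f, and 1.26 and 0.722 in wild type. Input was thus below its mean around these windows in wild type too, while wild-type preimmune was above its own. The part of these local levels in the missing windows was not tested.

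Segments of 3 or more windows had a longer shoulder. The first 100 bp beside them was at 0.241 in preimmune and 0.310 in input, and at 1000 bp the ratios were 0.823 and 0.863. Of the 120 windows that border these segments, 63 held no su(Hw)f read (52.5%). By the rule such windows have under 15 wild-type reads, and 7 of the 63 had none. Beside single windows 317 of 2164 bordering windows held no su(Hw)f read (14.6%).

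Beside segments missing only in wild type the largest ratios lay in the first 100 bp. For those of 1 window, the su(Hw)f over wild-type ratio at 100 bp was 1.37 in preimmune and 1.29 in input, and at 200 bp it was 1.07 and 1.03. Beside those of 3 or more windows it was 2.35 and 2.40 at 100 bp, and 1.09 and 1.07 at 200 bp. Farther out preimmune stayed uneven, at 1.14 (1.06 to 1.22) at 400 bp, 1.27 (1.19 to 1.36) at 600 bp and 1.18 (1.11 to 1.26) at 1000 bp, where input was at 1.08, 0.999 and 0.953. It also fell below 1, to 0.896 (0.842 to 0.954) in preimmune at 900 bp and 0.913 (0.858 to 0.973) at 1500 bp.

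**Figure D3:**
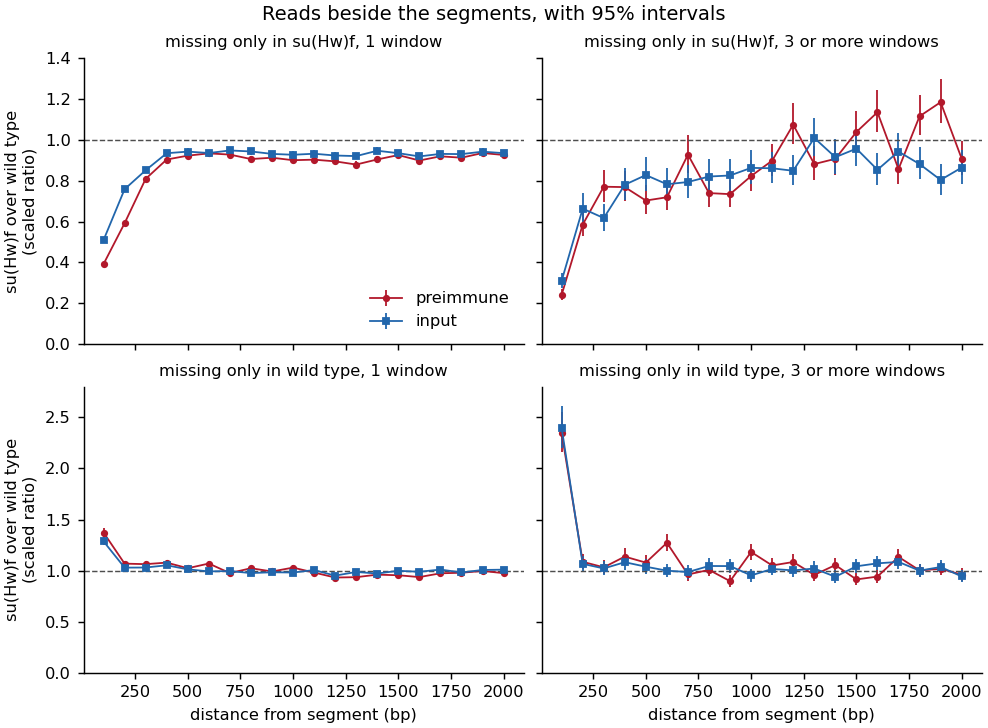
Scaled su(Hw)f over wild-type read ratio against distance from the segment in bp, in preimmune (circles) and input (squares) with 95% counting intervals, for segments missing only in su(Hw)f (top) and only in wild type (bottom). Beside single windows missing in su(Hw)f the ratio climbs from 0.392 and 0.509 at 100 bp to 0.922 and 0.942 at 500 bp, whereas beside single windows missing in wild type it is 1.07 and 1.03 by 200 bp.

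The stretch without su(Hw)f reads could reach past the segment into windows where wild type was also low. The 1206 segments lay in 1145 unbroken runs of windows at 0 in both su(Hw)f libraries, and 830 of these runs were 1 window long. Runs of 1000 bp or more numbered 56, and 35 runs held more than 1 segment. The longest, X 100201 to 137600, was empty in every library in 373 of its 374 windows. Its single member held 23 wild-type preimmune reads and 1 wild-type input read, so this run shows little about the mutant. The next 2 by length were unlike each other in this. Of 106 windows in 3L 23613801 to 23624400, 99 were empty in every library, while in 2R 1155101 to 1162600 only 11 of 75 were.

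Arms differed in how many segments they held. There were 13.5 segments per Mb on 2R (exact Poisson interval 11.96 to 15.1) and 13.04 on 2L (11.6 to 14.6). X had 9.36 (8.13 to 10.7), 3L 8.07 (6.98 to 9.27) and 3R 6.63 (5.71 to 7.66). The small and largely heterochromatic chromosome 4 had 22.9 (15.6 to 32.5), from 31 segments. The values of 2L and 2R lay above those of X, 3L and 3R. These intervals take each segment as separate, although 33.0% of segments lay in groups of 2 or more joined within 10 kb. They therefore do not rank the arms. With a wild-type minimum of 30 the order of 2L and X turned round, at 1.65 and 1.94 segments per Mb.

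As a share of windows with 15 or more wild-type reads, members made up 0.590% on chromosome 4, 0.280% on 2R, 0.213% on 2L, 0.160% on X, 0.118% on 3L and 0.0900% on 3R. Long segments were less evenly spread. Of the 60 segments of 300 bp or more, 28 lay on 2R, 14 on 2L, 12 on X, 3 on 3R, 2 on chromosome 4 and 1 on 3L. Of the 17 that reached 500 bp, 12 were on 2R. By count, 3L held the most segments of 300 bp or more missing only in wild type, 49 of 131, and no share of windows per arm was computed for these.

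Length also went with place along the arm. Of 1175 segments on the 5 large arms, 177 lay in the 1.5 Mb of assembled arm nearest to the centromere (15.1%, interval 13.1% to 17.2%). Those parts held 3.97% of the large-arm windows with 15 or more wild-type reads. The share was 11.8% for single windows (9.87% to 13.9%), 27.4% for segments of 2 windows (16.9% to 40.2%) and 62.1% for segments of 3 or more (48.4% to 74.5%). Without 2R, a setting added after seeing the data, it was 11.3% over all lengths and 14 of 30 for segments of 3 or more windows. Segments missing only in wild type lay there in 16.2% of cases, and those of 3 or more windows in 29.2% (21.6% to 37.9%).

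The centromere-side parts were not alike. On 2R members made up 198 of 5353 windows there (3.70%, interval 3.21% to 4.24%), against 0.160% on the rest of the arm. Of the 198, 86 lay in 1 stretch, 2R 1152501 to 1184800, and the intervals take windows as separate. On 2L the share was 1.24% (0.991% to 1.53%) near the centromere and 0.169% elsewhere. It was 0.478% and 0.145% on X, and 0.469% and 0.110% on 3L. On 3R it was 0.0614% near the centromere (0.0247% to 0.127%) and 0.0916% elsewhere (0.0790% to 0.104%), so these intervals overlap.

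The segments were scattered along the arms. Of 124 bins of 1 Mb, 122 held at least 1 segment, with a median of 9, but only 23 held one of 300 bp or more. The fullest bins were 2R 1 to 1000000 with 44 segments, 2L 22000001 to 23000000 with 42 and 2R 1000001 to 2000000 with 36. Next came 2L 11000001 to 12000000 with 25, then 2L 17000001 to 18000000 and chromosome 4 1 to 1000000 with 23 each. The 2 bins on 2L held no segment of 300 bp or more, and the one on chromosome 4 held 2. A segment missing only in wild type lay within 1 kb of 20 of the 1206 segments (1.66%) and within 10 kb of 146 (12.1%). The same share over all windows was not computed, so these counts do not show whether the 2 sets lie near each other.

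**Figure D4:**
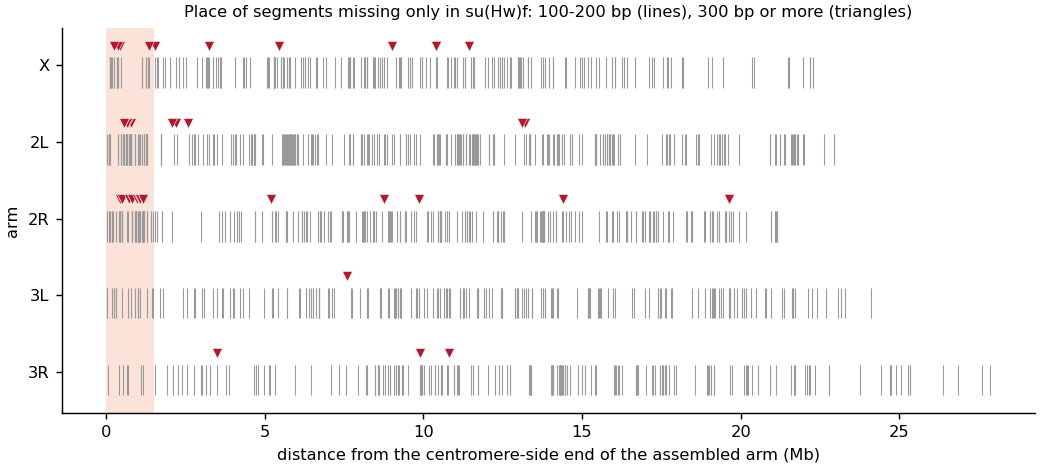
Place of the 1175 segments on the large arms, by arm (vertical) and by distance from the centromere-side end in Mb (horizontal), with grey lines for segments of 100 and 200 bp and triangles for those of 300 bp or more. The shaded first 1.5 Mb holds 36 of the 58 triangles, 22 of them on 2R.

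Joined across gaps of up to 10 kb, the segments formed 965 clusters, of which 808 were a single segment. Only 8 clusters held 5 segments or more. Segments missing only in wild type formed 625 clusters, of which 1 held 72 segments, so their number is not one of separate places. The largest on the su(Hw)f side was 2R 1152501 to 1184800, with 20 segments in 32300 bp. Up to 2R 1178900, where the last long run without su(Hw)f reads ends, it held 19 segments, where su(Hw)f kept 45 reads in preimmune and 53 in input, and wild type had 1439 and 1496. In that part 255 of 264 windows had no su(Hw)f read, and 102 of them were empty in every library. The last 5900 bp of the cluster had 1 segment, with unscaled counts of 775 and 636 reads in su(Hw)f and 619 and 470 in wild type.

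**Figure D5:**
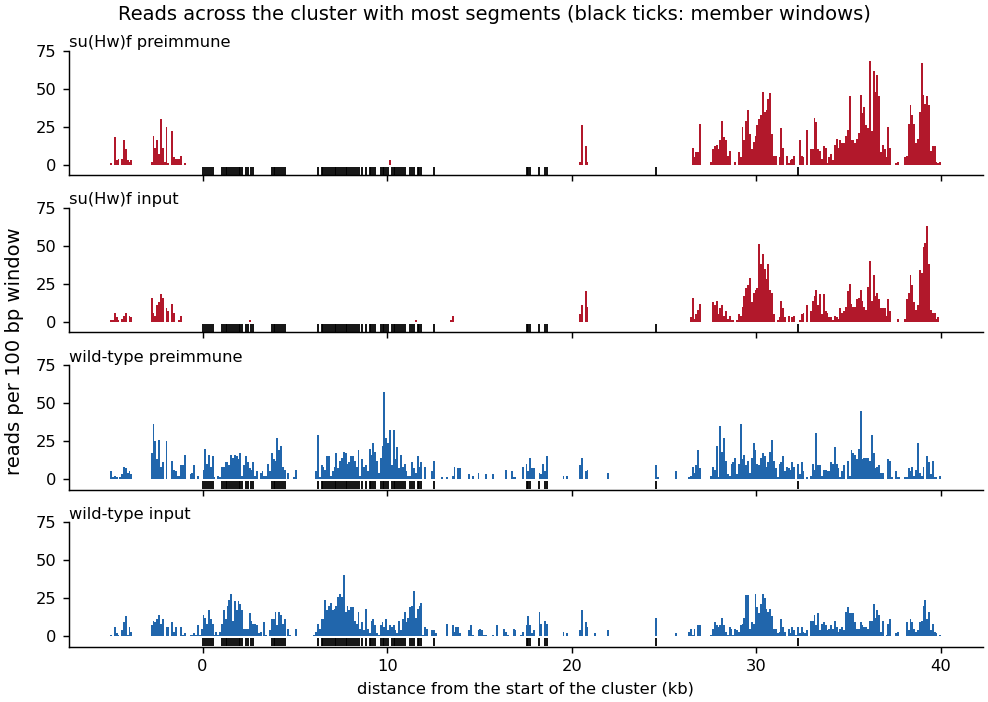
Reads per 100 bp window (vertical) against distance in kb from the start of the cluster with most segments (horizontal), in the su(Hw)f libraries (top 2 panels) and the wild-type libraries (bottom 2 panels), with black ticks under member windows. The su(Hw)f libraries are at 0 in 255 of the first 264 windows, while the wild-type libraries show groups of reads separated by windows that are empty in every library.

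This cluster holds the longest segment of all, 2R 1158901 to 1161000. Both su(Hw)f libraries were at 0 over its 2100 bp, where wild-type preimmune held 243 reads and wild-type input 405. A count of 0, taken as fewer than 3 reads, is 0.742% of the wild-type level in preimmune and 0.501% in input. The rule required these zeros, so the values are not a bound on the su(Hw)f level. The 500 bp flanks, which include other segments of the set, were empty in su(Hw)f too, against 72 and 58 wild-type reads. Reads of su(Hw)f were thus absent past both ends, in part in windows where the rule required it.

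The cluster has 5 more of the 20 longest segments. 2R 1153501 to 1154700 held 140 wild-type preimmune and 219 wild-type input reads. 2R 1156201 to 1157000 held 124 and 94, 2R 1162701 to 1163500 held 116 and 60, and 2R 1152501 to 1153100 held 75 and 70. In 2R 1162101 to 1162600 preimmune exceeded input, with 144 reads and 37. Between them su(Hw)f had at most 3 reads in the 500 bp flanks of any of the 5, other segments of the set included. 2R 1164101 to 1164400, among the 5 fullest segments of 300 bp or more, held 34 wild-type preimmune and 60 wild-type input reads.

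The second cluster by number of segments, 2L 22458301 to 22463500, was nearly empty from end to end. Its 11 segments covered 29 of 52 windows, and 48 of the 52 had no su(Hw)f read. Over the whole span su(Hw)f held 4 reads in preimmune and 3 in input, where wild type held 525 and 387, which gives ratios of 0.00458 (0.00124 to 0.0118) and 0.00524 (0.00108 to 0.0154). The rule required 0 su(Hw)f reads in the 29 member windows. These ratios, like those of the other clusters, are therefore in large part set by the choice and are a description. Only 1 window was empty in every library. The longest segment of 2L, 22461101 to 22461600, lies here and held 98 wild-type preimmune and 30 wild-type input reads.

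In the other 3 of the 5 clusters with most segments, su(Hw)f retained reads over part of the span. 2R 418701 to 428600 had 7 segments and ratios of 0.813 in preimmune and 0.560 in input. 2R 803701 to 829500 had 7 segments, with ratios of 0.676 and 0.749, and 2L 22212201 to 22234800 had 7, with 0.795 and 0.843. Many windows without su(Hw)f reads in these spans were empty in every library. They were 10 of 45 in the first cluster, 76 of 119 in the second and 51 of 79 in the third. In the first lies 2R 425301 to 426500, with 120 wild-type preimmune and 204 wild-type input reads over 1200 bp. Its flanks, which include other segments of the set, held 0 and 2 su(Hw)f reads against 78 and 105 in wild type. The near-empty stretch runs past this segment, in part through windows that the rule required to be empty in su(Hw)f. In the second lies 2R 828501 to 829300, the fullest segment of 300 bp or more, with 282 and 115 wild-type reads. Its flanks kept 61 and 108 su(Hw)f reads, all to its left, where wild type had 169 and 153 on both sides together.

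Smaller clusters included stretches wholly without su(Hw)f reads. 2R 509201 to 512100 held 5 segments and no su(Hw)f read in 29 windows, where wild type had 141 in preimmune and 173 in input, and 13 of the 29 were empty in every library. On chromosome 4, 475801 to 477300 held 5 segments and no su(Hw)f read in 15 windows, against 129 and 138. Within it, 4 476601 to 477100 held 45 wild-type preimmune and 56 wild-type input reads. The fullest of the 2 segments of 300 bp or more on chromosome 4 was 456701 to 457200, with 66 and 52 reads.

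Other long segments near the 2R centromere stood alone or in small groups. 2R 1076501 to 1077300 held 106 wild-type preimmune and 123 wild-type input reads over 800 bp, and its flanks kept 67 and 169 su(Hw)f reads. 2R 1021101 to 1021800 held 106 and 85, with 40 and 70 su(Hw)f reads in the flanks. The su(Hw)f reads lay mainly on 1 side of each. The first had 236 in the 500 bp to its left and 0 to its right, and its cluster, 2R 1076501 to 1078100, held 1 su(Hw)f read in 16 windows. The second had 107 to its left and 3 to its right.

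Far from the centromeres, a few long segments lay in well-covered DNA. X 10975701 to 10976300, the longest on X, held 88 wild-type preimmune and 84 wild-type input reads over 600 bp. In its 500 bp flanks su(Hw)f held 134 and 74 reads and wild type 166 and 73. X 16982301 to 16982800 held 71 and 60 wild-type reads, and in its flanks su(Hw)f held 119 and 104 reads and wild type 84 and 96. Both segments are short gaps with su(Hw)f reads close by. These flank counts are unscaled. At an equal level su(Hw)f would hold 1.664 times the wild-type reads in preimmune and 1.479 times in input. Beside both segments su(Hw)f lay below that level in each kind of library.

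On the autosomes 2R 5197501 to 5198000 held 88 wild-type preimmune and 51 wild-type input reads, with 121 and 100 su(Hw)f reads in its flanks and 168 and 94 wild-type reads. 2L 20929001 to 20929400 held 57 and 57 wild-type reads, with 126 and 113 su(Hw)f reads in its flanks and 80 and 90 wild-type reads. These flank counts are unscaled too, and su(Hw)f lay below an equal level beside both segments. The pair 2R 19634801 to 19635200 and 2R 19635701 to 19636400 held 66 and 48, and 84 and 109 wild-type reads. The span of their cluster, 2R 19634801 to 19636400, had 0 preimmune and 1 input read in su(Hw)f, so the pair marks 1 stretch. 2R 8743001 to 8743400 held 81 and 32 wild-type reads and lies in a run of 4700 bp without su(Hw)f reads, of which 29 of 47 windows were empty in every library.

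The longest segments on the arms of chromosome 3 were 300 bp. 3R 3506601 to 3506900 held 58 wild-type preimmune and 33 wild-type input reads, and 3L 16935301 to 16935600 held 53 and 11. Their flanks were well covered in su(Hw)f, with 159 and 150 reads on 3R and 180 and 267 on 3L. The remaining fullest segments of 300 bp or more were X 21976001 to 21976300, with 70 and 54 wild-type reads, and X 22052901 to 22053200, with 48 and 59.

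The fullest single window, named after its value was seen, was 2R 995301 to 995400. It held 36 wild-type preimmune and 60 wild-type input reads, and in its flanks su(Hw)f held 127 and 70 reads and wild type 293 and 396. The next fullest, 3L 4669201 to 4669300 and 3R 15448701 to 15448800, were of the other kind, with 51 wild-type preimmune reads each and 9 and 3 wild-type input reads. At so few input reads a count of 0 in su(Hw)f input, taken as fewer than 3 reads, reached 22.5% and 67.6% of the wild-type level. In preimmune the value was 3.53% for each. The rule required these zeros, so the values are not a bound on the su(Hw)f level.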

How the data were processed

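The authors deposited read counts per 100 bp window in wiggle format, per the file headers, 1 file per library. These deposited counts are whole numbers and were not scaled. The submitters' processing notes name Partek 6.5 and the build dm3. How reads were aligned, and whether duplicates and multiply matching reads were kept, is not given in the sources used here. A window can be at 0 because its reads match several places, which is why windows empty in every library are counted separately.

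Samples were grouped by title, with 1 library in each group, so no test was run. The rule and the joining used Python 3.11.15 and numpy 2.4.6. Shares and ratios carry 95% exact Clopper-Pearson intervals, and counts per Mb exact Poisson intervals (scipy 1.17.1). A count of 0 was taken as fewer than 3 counts. Ratios were scaled to reads on the 6 major arms. Flanks were the 500 bp on each side, without other segments in the pooled ratios and with them in the counts of single named segments. The rule was run on simulated counts with emptied windows, which checks only that it is applied as written. Named regions were the 20 longest segments, the 5 fullest of 300 bp or more, the longest of each arm and the 5 clusters with most segments. Members, lists and settings were chosen with earlier results of these data known. The length classes, and the smaller clusters named, were chosen after the values were seen.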

Additional observations from a re-analysis of the deposited data

Results flagged for a closer look

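The same rule was met by 240 windows on the scaffolds outside the major arms, which no comparison used. These were 1.55% of the 15492 windows there with 15 or more wild-type reads, and they formed 184 segments. Windows missing only in wild type numbered 208, for which no share was computed. Scaffold U held 74 of the 240, 3LHet 71, 2RHet 39, 3RHet 33, Uextra 19 and 2LHet 4. As a share of each scaffold's windows with 15 or more wild-type reads, the order differed. Uextra had 3.11%, U 2.64%, 3LHet 1.88%, 3RHet 1.28%, 2LHet 1.17% and 2RHet 0.812%. XHet and YHet held 0 of 572 and 1 windows with 15 or more wild-type reads. On 3LHet the 71 windows held 1007 wild-type preimmune and 567 wild-type input reads, and the longest segment there was 500 bp. Base composition and mappability of these windows were not tested.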

How the results depend on the processing

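No paired analysis was possible because each group has a single library. Over 72 alternative values 17 stayed within 1.5 times a count or within the interval of a share or ratio, and 55 moved further. At a minimum of 30 the order of the genotypes by number of missing segments turned round, as did the order of 2L and X in segments per Mb. The number of segments, the number of windows, the percentage that are single windows and the percentage within 1.5 Mb of the centromere are given in that order below, against 1206, 1487, 89.7% and 15.1%. With a wild-type minimum of 10 they were 2311, 2751, 91.9% and 12.8%. With 20 they were 644, 814, 88.2% and 19.8%, and with 30 they were 205, 250, 86.3% and 28.0%. Asking 5 or more reads in each wild-type library gave 654, 871, 85.2% and 20.03%. Allowing 1 su(Hw)f read gave 2551, 2916, 92.7% and 10.3%. Inputs alone gave 129, 184, 79.1% and 41.3%, and preimmune alone 2802, 2926, 96.5% and 8.51%. With X from 2.6 to 2.9 Mb kept in they were 1400, 2231, 81.6% and 12.9%. Asking 5 or more wild-type input reads, added after seeing the data, gave 667, 911, 84.3% and 19.9%. Leaving out 2R, also added, gave 921, 1047, 91.7% and 11.3%, and 46.7% of segments of 3 or more windows near the centromere. The number of segments thus rests on the bar and on the kind of library, while single windows were the majority under each of these settings.

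Missing only in wild type, scaling the minimum gave 861 windows in 505 segments, and a minimum of 30 gave 590 in 365. With a wild-type minimum of 30 the segments per Mb were 1.94 on X, 1.65 on 2L, 4.07 on 2R, 0.570 on 3L, 0.681 on 3R and 3.70 on chromosome 4. Windows per Mb were 11.3 on X, 15.5 on 2L and 20.8 on 2R. The flank ratio in preimmune was 0.818 over 1 kb and 0.894 with the nearest 200 bp left out, and in input it was 0.892 and 0.920. Windows picked by preimmune and read in input were at 0 in 24.8%, against 89.7% the other way. Joining within 5 kb or 20 kb gave 1030 and 851 clusters. Single windows rest on the fewest input reads, as 538 of 1082 had fewer than 5 in wild type, and the cause was not tested.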
